A study of Mus musculus with 6 samples.

Results

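The circadian clock genes described here are Arntl (also called Bmal1), Clock, Per1, Per2, Per3, Cry1, Cry2, Nr1d1, Nr1d2 and Dbp, 10 of the 43472 gene symbols counted in each library. They were chosen by symbol as the core loop of the mammalian clock and its best known output gene, by a rule that uses no measured value, though with earlier results of these data known. RNA-seq was made from whole intervertebral discs (IVDs), vertebral levels T8-L5, of C57B6/J mice at postnatal day 20 (P20). The 3 mutant libraries came from Col2Cre; Adgrg6f/f mice, in which Cre driven by a Col2a1 promoter deletes a floxed Adgrg6 (Gpr126 in the sample titles and in the files), a receptor of the adhesion class, across all tissues of the disc and, by the account of the study, also in periosteum and vertebral bone. The 3 control libraries carry the genotype wild type in the sample labels and Col2Cre control in the sample titles, and the text of the study calls them Cre (-) littermates. Each library is a pool of discs from 2 to 3 mice, so a value is an average over those animals, and p-values measure the spread between pools. The hour at which discs were collected is not given in the sources used here. Of the 10 clock genes, 9 had enough counts to be tested between genotypes, and Per3 was listed at 0 in all 6 libraries.

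The clock is a feedback loop in which ARNTL and CLOCK bind as a pair to E-box sequences and switch on the Per, Cry, Nr1d1, Nr1d2 and Dbp genes. The PER and CRY proteins then block that pair, NR1D1 and NR1D2 (REV-ERB alpha and beta) hold down Arntl through RORE sequences, and DBP acts on other genes through D-box sequences. In most mouse tissues Arntl RNA is therefore high at the time of day when Dbp and Nr1d1 RNA are low, and Per RNA follows Dbp and Nr1d1 with a delay. Cartilage and the IVD are among the tissues known to hold such a clock. Antiphase genes were compared between pools and genotypes because their balance within a sample changes with the hour of collection.

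Sequences known to be bound by the clock proteins, and the cAMP response element bound by CREB proteins, were searched in RefSeq promoter windows on GRCm38.p6, each running from 250 bases before to 50 bases after an annotated start. Windows were found for 9 of the 10 clock genes, 13 in all, and for Per2 none was matched. Both strands were searched for the E-box CACGTG, the D-box TTATGTAA, the RORE core AGGTCA and the cAMP response element TGACGTCA, and no match overlapped another. The E-box stood in windows of 2 clock genes, Per1 and Cry1, and in 7.15% of all 32851 windows. The RORE core stood in windows of 4, namely Arntl, Clock, Nr1d2 and Per1, and in 16.3% of all windows. The D-box stood in the window of Per3 only, with 2 matches, and in 0.938% of all windows, while the cAMP response element stood in 0 of the 13 windows and in 1.79% of all windows. A match describes the letters in a window and is not a binding site. The stretches of 5 of the genes with a match are shown, read 5′ to 3′ on the strand of the gene, with the matches in capitals (TGACCT is the RORE core read on the other strand). The stretch of Clock, with a RORE core at -119, is not shown.
Arntl, chr7:113207530-113207559, plus strand, RORE core 31 bases after the start: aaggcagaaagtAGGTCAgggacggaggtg
Nr1d2, chr14:18239131-18239230, minus strand, RORE core at -77: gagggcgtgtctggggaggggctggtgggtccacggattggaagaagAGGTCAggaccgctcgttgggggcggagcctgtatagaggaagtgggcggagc
Per1, chr11:69098750-69098849, plus strand, E-box at -166 and RORE core at -137: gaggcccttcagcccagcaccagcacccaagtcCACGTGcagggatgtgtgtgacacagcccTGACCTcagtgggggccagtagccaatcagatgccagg
Cry1, chr10:85185062-85185161, minus strand, E-box at -60: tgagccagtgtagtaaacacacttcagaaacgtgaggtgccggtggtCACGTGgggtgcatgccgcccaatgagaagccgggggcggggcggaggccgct
Per3, chr4:151044794-151044893, minus strand, D-boxes at -205 and -158: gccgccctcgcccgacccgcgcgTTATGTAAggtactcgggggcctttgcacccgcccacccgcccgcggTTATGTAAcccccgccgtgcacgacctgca

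The libraries held 9061491 to 12017008 counts on genes, or 40.4% to 44.2% of reads. Summed levels of 6 cartilage markers were 70267 to 132632 CPM (counts scaled to the library's normalised total) and those of 6 nucleus pulposus markers 2106 to 5533 CPM, and no defining marker of either was at 0. Control replicate 1 stood apart by its 6 skeletal muscle markers, which summed to 2801 CPM there and to 63.6 to 151 CPM in the other 5 libraries. Mutant replicate 1 stood apart by the highest share of unaligned reads, 18.9% against 12.0% to 15.2%, and by 14 immediate early genes that summed to 1325 CPM against 303 to 569 CPM. Markers of neurons and glia summed to 207, 1640 and 505 CPM in the control pools and to 3538, 2479 and 837 CPM in the mutant pools, in the order of replicates 1 to 3 that is used throughout. Most of this sum was the myelin gene Mbp, with 168, 1509 and 439 CPM in controls and 3317, 2274 and 755 CPM in mutants. The neuronal markers were low, with Snap25 at 0 to 3.21, Syp at 1.61 to 4.78 and Rbfox3 at 4.44 to 16.3 CPM. Gpr126 itself, counted over the whole gene, read 94.3 to 124 CPM in controls and 106 to 138 CPM in mutants (log2 fold change 0.17, SE 0.18, edgeR quasi-likelihood adjusted p = 0.849), so these counts do not check the deletion.

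Of the activators, Arntl (chr7:113207465-113314126, plus strand, GENCODE M21 on GRCm38), which pairs with CLOCK, read 34.6, 22.3 and 24.3 CPM in controls and 14.3, 44.6 and 25.4 CPM in mutants. The lowest and the highest of the 6 libraries were both mutant, so the mutant pools spanned the controls on either side. The counts behind these ends were 126 (exact Poisson 95% interval 105 to 150, counting error only) in mutant replicate 1 and 546 (501 to 594) in mutant replicate 2. Clock (chr5:76209868-76304792, minus strand) moved little, with 24.3, 18.9 and 25.0 CPM in controls and 16.0, 23.3 and 23.6 CPM in mutants. Its lowest value also fell in mutant replicate 1, and the genotypes overlapped.

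Among the repressors, Per1 (chr11:69095217-69109960, plus strand), a partner of the CRY proteins that is also known as a quick responder to cAMP and glucocorticoids, read 87.9, 56.2 and 38.5 CPM in controls and 180, 71.7 and 115 CPM in mutants. Mutant replicates 1 and 3 lay above all controls, whereas mutant replicate 2 lay below control replicate 1. Per2 (chr1:91415982-91459324, minus strand), the other main PER protein of the loop, was low, with 8.35, 6.44 and 11.0 CPM in controls and 24.9, 8.73 and 9.88 CPM in mutants. One library, mutant replicate 1, was high for Per2, and the other 5 lay within 6.44 to 11.0 CPM, on as few as 58 counts (44.0 to 75.0). Cry2 (chr2:92403646-92434043, minus strand) read 62.8, 80.9 and 49.4 CPM in controls and 100, 75.1 and 86.8 CPM in mutants, and its paralog Cry1 (chr10:85131700-85185064, minus strand) 6.31, 8.22 and 7.27 CPM against 8.08, 7.10 and 4.67 CPM. The genotypes overlapped for both Cry genes.

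The nuclear receptor Nr1d1 (chr11:98767932-98775333, minus strand), which represses Arntl, read 252, 416 and 308 CPM in controls and 477, 242 and 412 CPM in mutants. Its highest library was mutant replicate 1, the one lowest for Arntl, and its lowest was mutant replicate 2, the one highest for Arntl. Nr1d2 (chr14:18204054-18239127, minus strand), its paralog, varied less, with 24.3, 20.0 and 25.7 CPM in controls and 32.4, 24.9 and 18.3 CPM in mutants. The output gene Dbp (chr7:45705088-45710203, plus strand), a transcription factor that reads out the ARNTL and CLOCK pair, spread widely within each genotype, with 79.5, 219 and 189 CPM in controls and 341, 96.4 and 202 CPM in mutants. Control replicate 1 and mutant replicate 2 were the low libraries for Dbp and the high ones for Arntl. Behind these Dbp levels stood 743 counts in control replicate 1 (691 to 798, counting error only) and 2997 in mutant replicate 1 (2891 to 3106). Across the 9 detected clock genes, mutant replicate 1 was the highest library for 6 (Per1, Per2, Cry2, Nr1d1, Nr1d2 and Dbp) and the lowest for 2 (Arntl and Clock).

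**Figure D1:**
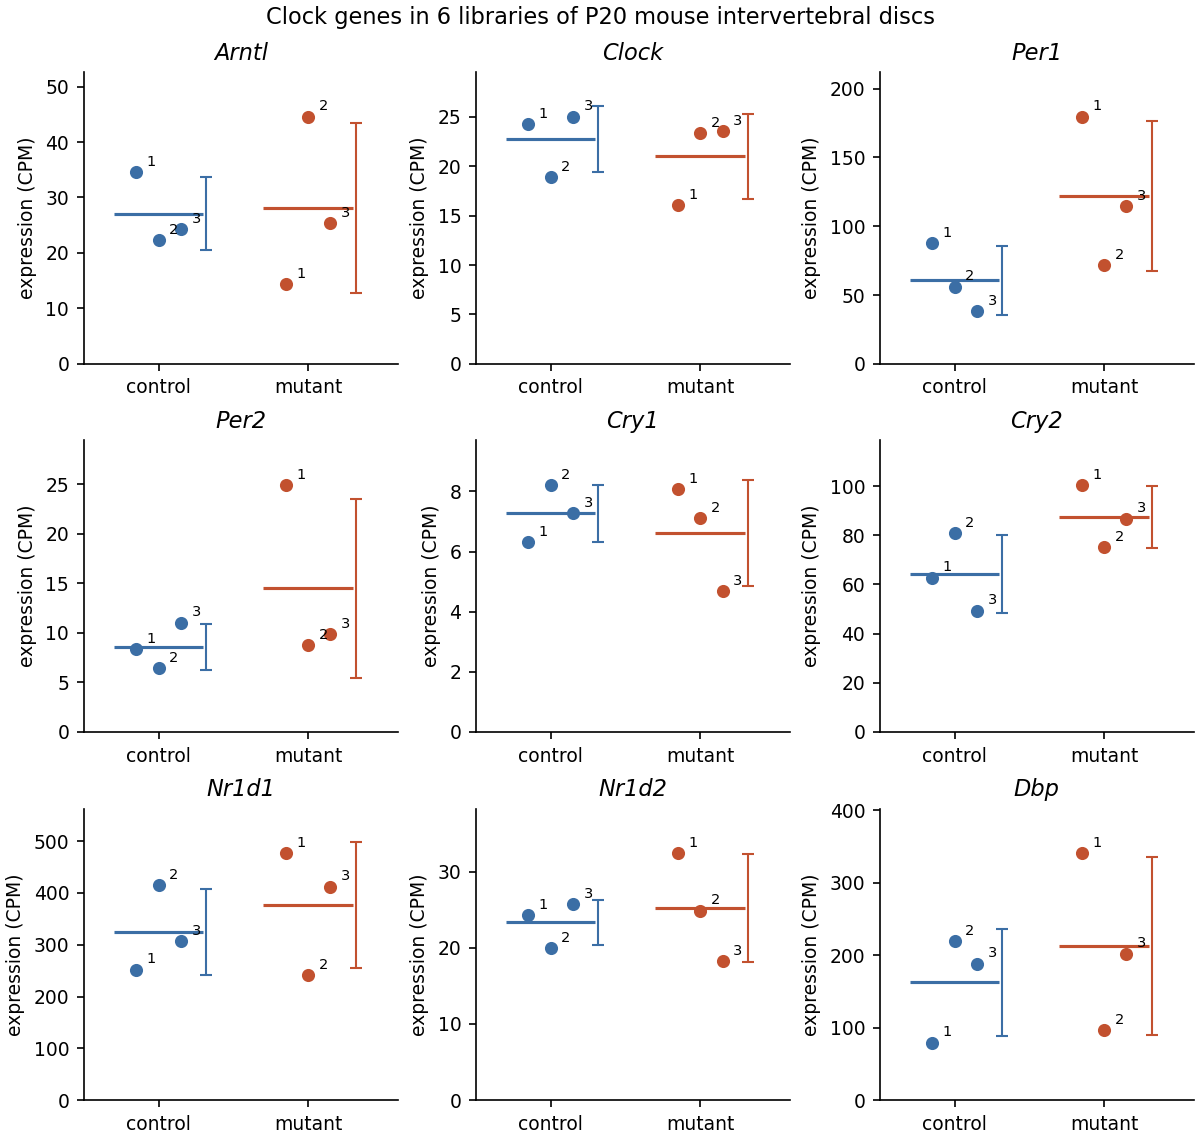
Expression in CPM (linear axis from 0) of the 9 detected clock genes, one panel a gene, with controls in blue and mutants in red. Points are libraries with their replicate number, horizontal lines are genotype means and error bars are SD of 3 libraries, and the 3 mutant values of Arntl (14.3 to 44.6 CPM) lie on both sides of the 3 control values (22.3 to 34.6 CPM).

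Per3 (chr4:151003652-151044665, minus strand), the least essential PER gene of the loop, had 0 counts in every library, where 3 counts would have been 0.235 to 0.341 CPM. In the annotation Per3 lies wholly inside Camta1 (chr4:150917322-151861876), on the same strand and without shared exon bases, and Camta1 held 3418 counts in all. Of 294 protein-coding genes that lie inside another gene of the same strand, 283 were at 0 in all libraries, against 117 of 685 nested in a gene on the other strand and 2689 of 19764 protein-coding genes that lie inside no other gene. The part of this nesting in the value of Per3 was not tested, and Per3 was left out of every comparison.

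Per length of exon, the clock genes lay at very different levels. Nr1d1 was the most abundant, at 114 ± 31.6 CPM per kb (SD, n = 6 libraries), followed by Dbp at 62.8 ± 31.6, Per1 at 16.2 ± 8.97, Cry2 at 12.0 ± 2.85, Nr1d2 at 4.49 ± 0.919, Arntl at 3.67 ± 1.40, Cry1 at 2.08 ± 0.392, Per2 at 1.97 ± 1.15 and Clock at 1.59 ± 0.260 CPM per kb. Nr1d1 lay above Dbp, Dbp above Per1 and Cry2 above Nr1d2 in 6 of 6 libraries. Only the last of these neighbouring pairs had ranges that did not overlap across libraries (7.82 to 15.9 against 3.38 to 5.996 CPM per kb). Per1 was above Cry2 in 4 of 6 libraries, Nr1d2 above Arntl in 4, Arntl above Cry1 in 5, Cry1 above Per2 in 4 and Per2 above Clock in 2, so the order within the lower part of the list is not settled by these libraries. Exon length was the union of annotated exons, which overstates the transcript of genes with many isoforms. Whether reads in introns were counted is not given in the sources used here. If they were, exon length is not the right divisor, and the order of the clock genes by level may differ.

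Several clock genes overlap neighbours in the annotation. As the shares at 0 given for Per3 show, nested genes were not counted alike on the same strand as their host and on the other. Whether the libraries themselves kept the strand is not given in the sources used here, so reads from the shared stretches may have been split between neighbours. Nr1d1 (21071 counts in all) overlaps Thra, the thyroid hormone receptor alpha gene on the opposite strand, by 1075 bases, and Dbp (11211 counts) overlaps Sphk2, a sphingosine kinase gene, by 737 bases. Thra ranged 1.33-fold across the libraries, against 1.97-fold for Nr1d1. Sphk2 read 62.3, 98.0 and 83.1 CPM in controls and 120, 77.9 and 90.4 CPM in mutants. From highest to lowest it ordered all 6 libraries as Dbp did, and it ranged 1.92-fold against 4.28-fold for Dbp. The part of this overlap in the values of Dbp was not tested. Arntl shares exon bases with Gm45355 on the opposite strand, and Clock contains Ube2n-ps1 and Gm43658 on its own strand without shared exon bases, none of which was analysed here. Cry2 contains D930015M05Rik on the opposite strand, a noncoding transcript with 22.3, 27.1 and 17.3 CPM in controls and 42.1, 20.1 and 34.8 CPM in mutants.

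Between genotypes, Per1 was the one clock gene that passed an unadjusted p under 0.05, and no clock gene passed after adjustment over all genes. Per1 was 60.8 ± 25.0 CPM in controls and 122 ± 54.3 CPM in mutants (SD, n = 3 each), a log2 fold change of 1.003 (SE 0.36) with an unadjusted p of 0.0187 and an adjusted p of 0.676 in the quasi-likelihood test of edgeR. Beside this 1 of 9 clock genes, the background was 7.21% of 16152 genes called in either direction, 2.89% higher and 4.32% lower in mutants. After Benjamini-Hochberg adjustment 0 clock genes were called by edgeR, by DESeq2 and by limma-voom, where edgeR called 0.00619% of all genes, which is 1 gene, DESeq2 58 of 26372 genes and limma-voom 0 of 16152. With 1 library left out, the call of Per1 was lost without mutant replicate 1 (log2 fold change 0.65), control replicate 3 (0.76) or control replicate 2 (0.94, with an unadjusted p of 0.0508), and kept when mutant replicate 2 (1.29), mutant replicate 3 (1.05) or control replicate 1 (1.39) was left out. Without a filter on low counts edgeR gave Per1 an adjusted p of 0.0172, and its adjusted p ran from that value to 0.999 over all alternatives.

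The next estimates in size were those of Per2 and Cry2, neither of which passed in the fit of all 6 libraries. Per2 was 8.60 ± 2.30 CPM in controls and 14.5 ± 9.03 CPM in mutants (log2 fold change 0.74, SE 0.41, edgeR adjusted p = 0.729), and the estimate was 0.14 without mutant replicate 1. Cry2 was 64.4 ± 15.8 CPM in controls and 87.5 ± 12.7 CPM in mutants (log2 fold change 0.44, SE 0.21, edgeR adjusted p = 0.701). Its estimate was 0.29 without control replicate 3 and 0.63 without control replicate 2. In the latter fit Cry2 was the only clock gene called (edgeR unadjusted p = 0.0160), beside 929 of 16610 genes. Dbp was 162 ± 73.4 CPM against 213 ± 123 CPM (0.39, SE 0.45), Nr1d1 325 ± 83.1 against 377 ± 121 CPM (0.21, SE 0.28) and Nr1d2 23.3 ± 2.99 against 25.2 ± 7.08 CPM (0.11, SE 0.23). Arntl was 27.1 ± 6.57 CPM in controls and 28.1 ± 15.3 CPM in mutants, a log2 fold change of 0.06 with an SE of 0.35. Clock (-0.11, SE 0.21) and Cry1 (-0.13, SE 0.32) had estimates just below 0. In all, 7 of the 9 estimates were above 0 and 2 below, with a median of 0.21, beside a median of -0.01 over all genes tested, of which 7818 had estimates above 0 and 8334 below. This tally depended on mutant replicate 1. Without that library Nr1d2 (-0.075) and Dbp (-0.081) fell below 0, and Clock rose above it (0.080). The estimate of Nr1d1 was then 0.047. In 0 of the 9 clock genes did the libraries of the genotypes fail to overlap, where 11.4% of all genes tested had libraries that did not overlap. In whole discs, fewer cells of a kind and less RNA per cell cannot be told apart.

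**Figure D2:**
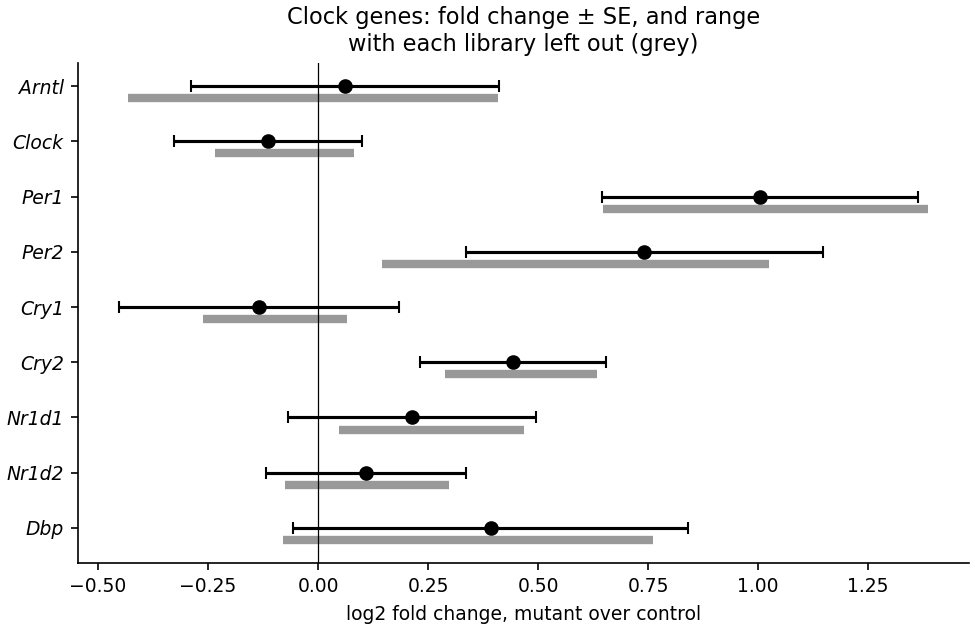
Log2 fold change of mutant over control for the 9 tested clock genes, as points with SE bars from the edgeR fit, and below each a grey bar from the lowest to the highest estimate with each library left out in turn. Grey bars of Arntl (-0.43 to 0.41), Clock, Cry1, Nr1d2 and Dbp (-0.08 to 0.76) cross 0.

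Several clock genes differed widely between pools of the same genotype. The SD of log2 CPM within genotypes was 0.85 for Dbp, 0.64 for Per2, 0.63 for Per1, 0.62 for Arntl and 0.45 for Nr1d1, beside a median of 0.27 over genes with a mean of at least 5 CPM. Only 2.70% of those genes had a larger SD than Dbp, and 5.75%, 5.94%, 6.12% and 16.3% had a larger one than Per2, Per1, Arntl and Nr1d1. The remaining clock genes were near the middle of all genes, with SDs of 0.32 for Nr1d2, 0.31 for Cry1, 0.29 for Cry2 and 0.27 for Clock. The estimated difference between genotypes was larger than this SD for Per1, Per2 and Cry2 and smaller for the other 6 tested clock genes. From the lowest to the highest library of either genotype, computed on the log2 scale with a prior count of 2, Per1 ranged 4.65-fold, Dbp 4.28-fold, Per2 3.79-fold and Arntl 3.08-fold, against 1.55-fold for Clock and a median of 1.67-fold.

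Arntl ran opposite to Dbp and Nr1d1 from library to library. From highest to lowest, Arntl ordered the libraries as mutant 2, control 1, mutant 3, control 3, control 2 and mutant 1, whereas Dbp ordered them as mutant 1, control 2, mutant 3, control 3, mutant 2 and control 1, and Nr1d1 as mutant 1, control 2, mutant 3, control 3, control 1 and mutant 2. Over the 6 libraries the log2 CPM of Arntl and Dbp correlated with a Pearson r of -0.93 (two-sided exact permutation p = 0.0111, Benjamini-Hochberg adjusted 0.0278 over 5 relations) and a Spearman rho of -0.89 (exact permutation p = 0.0333, adjusted 0.0833). Arntl and Nr1d1 correlated with r = -0.90 (exact permutation p = 0.00694, adjusted 0.0278) and rho = -0.94 (exact permutation p = 0.0167, adjusted 0.0833). The smallest p that the ranks of 6 libraries allow is 0.00278, and by rank neither relation passed 0.05 after adjustment. Without the 2 libraries farthest from the median of Arntl, mutant replicates 2 and 1, r was -0.98 for Dbp and -0.82 for Nr1d1 over 4 libraries. On deviations from the genotype means, which removes any difference between genotypes, r was -0.94 for Dbp and -0.91 for Nr1d1. With 1 library left out, r with Dbp ran from -0.99 to -0.89 and r with Nr1d1 from -0.95 to -0.85. Over the 5 libraries without mutant replicate 1 the exact permutation p was 0.0667 for Dbp and 0.108 for Nr1d1, and without mutant replicate 2 it was 0.0667 and 0.0583.

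For Per1, Per2 and Nr1d2 no such relation to Arntl was detected over 6 libraries. Per2 correlated with Arntl at r = -0.67 (exact permutation p = 0.147, adjusted 0.245), Per1 at -0.40 (exact permutation p = 0.435) and Nr1d2 at -0.32 (exact permutation p = 0.538). Their rho was -0.37, -0.14 and -0.31, with exact permutation p of 0.497, 0.803 and 0.564. Each of these rested on mutant replicates 2 and 1, since without them r was 0.11 for Per2, 0.46 for Per1 and 0.40 for Nr1d2. Per1 ordered the libraries as mutant 1, mutant 3, control 1, mutant 2, control 2 and control 3, so control replicate 1 was high for both Per1 and Arntl.

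**Figure D3:**
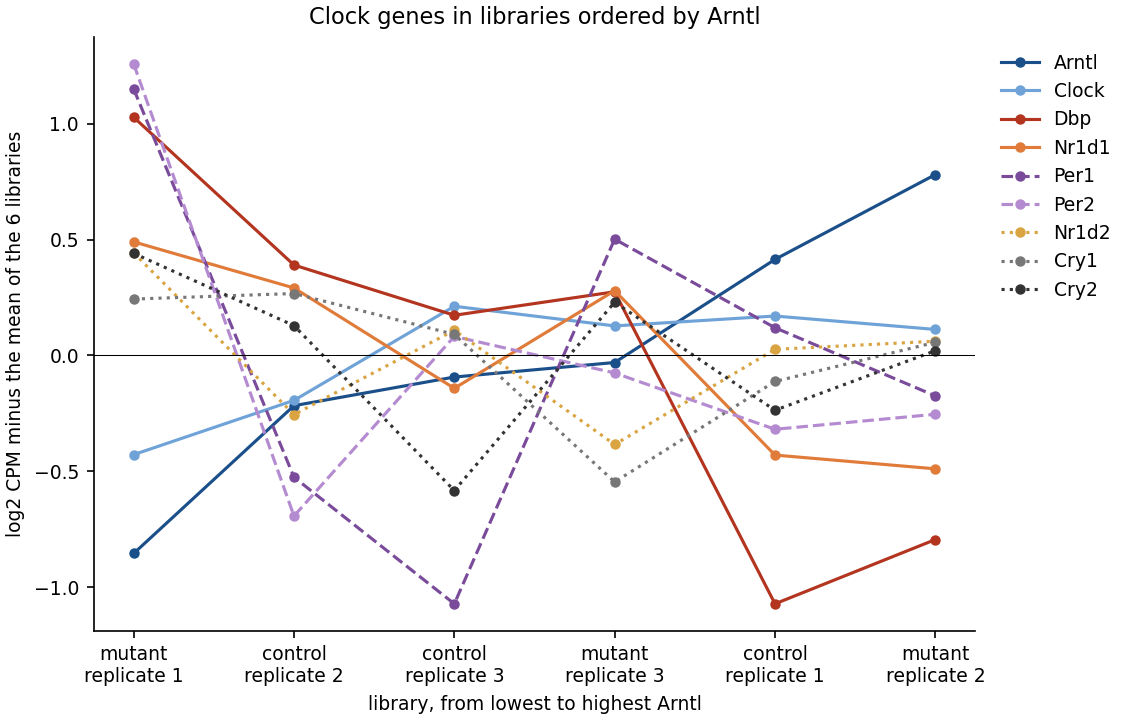
Log2 CPM of each detected clock gene minus its mean over the 6 libraries, with libraries on the x axis ordered from lowest to highest Arntl and one line a gene. Dbp and Nr1d1 fall from mutant replicate 1 to the libraries highest in Arntl (r = -0.93 and -0.90), while control replicate 1 is high for both Per1 and Arntl.

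The balance of antiphase genes within a library needs no scaling between libraries. The log2 ratio of Arntl to Dbp was -1.20, -3.30 and -2.96 in controls and -4.57, -1.11 and -2.99 in mutants. It thus spanned 3.46 log2 units over the 6 pools, whereas the genotype means differed by -0.41 (controls -2.48 ± 1.12, mutants -2.89 ± 1.73, SD, n = 3). The log2 ratio of Arntl to Nr1d1 was -2.87, -4.22 and -3.66 in controls and -5.06, -2.44 and -4.02 in mutants. For Per1 the ratio was -1.35, -1.33 and -0.66 in controls and -3.65, -0.69 and -2.17 in mutants, and for Per2 it was 2.05, 1.79 and 1.14 against -0.80, 2.35 and 1.36. Mutant replicate 1 was the lowest library in all 4 ratios, and mutant replicate 2 the highest in those to Dbp, Nr1d1 and Per2.

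As a score over these genes, the log2 CPM of Arntl minus the mean log2 CPM of Dbp, Nr1d1, Per1 and Per2 was -0.84, -1.76 and -1.53 in controls and -3.52, -0.47 and -1.96 in mutants. The controls averaged -1.38 ± 0.48 and the mutants -1.98 ± 1.52 (SD, n = 3), a difference of -0.60 that is smaller than the SD of the mutant pools and is given with no test. The difference turned to 0.17 when mutant replicate 1 was left out and became -1.36 when mutant replicate 2 was, so a single pool set its sign. Other make-ups of the score gave -0.45 (without Per1), -0.51 (with Nr1d2 added) and -0.63 (Arntl and Clock averaged).

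The share of unaligned reads moved with this balance at its ends. It was lowest in mutant replicate 2 (12.0%) and control replicate 1 (12.3%), the libraries highest in Arntl, and highest in mutant replicate 1 (18.9%), the one lowest in Arntl, with 13.5% in control replicate 2, 15.2% in control replicate 3 and 14.0% in mutant replicate 3. The sum of neuron and glia markers, mostly Mbp, was highest in mutant replicates 1 and 2 (3538 and 2479 CPM), the opposite ends of Arntl. The muscle markers of control replicate 1 (2801 CPM) had no counterpart in mutant replicate 2 (133 CPM), the other library high in Arntl. The markers of macrophages followed the balance more closely as a sum over the 5 of 6 symbols that the files hold, with values of 44.0, 52.1 and 57.4 CPM in controls and 82.1, 49.9 and 61.9 CPM in mutants, lowest in control replicate 1 and mutant replicate 2 and highest in mutant replicate 1. Among them C1qa had r of -0.90 with Arntl and 0.90 with Dbp, C1qb -0.89 and 0.87, Csf1r -0.90 and 0.96, and Cd68 0.01 and 0.07. Mrc1 did not follow it, with 3.21, 3.11 and 7.19 CPM in controls and 7.06, 5.55 and 3.40 CPM in mutants. Neutrophil markers were also highest in mutant replicate 1 (109 CPM against 9.42 to 39.6 CPM). Markers of red blood cell precursors were highest in mutant replicate 2 (379 CPM) and control replicate 1 (295 CPM), the libraries highest in Arntl. They summed to 241 CPM in mutant replicate 1 and were lowest in control replicate 2 (33.9 CPM). Without control replicate 1, r of Arntl with Dbp was -0.99. The part of these measures in the clock genes, and that of the hour of collection, was not tested.

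Correlations with Arntl and Dbp were common among all genes, and they are given here as descriptions over the same 6 libraries, which share depth and composition. Among 12231 other genes with a mean of at least 5 CPM, 150 (1.23%) had r of -0.9 or below with Arntl, and Dbp ranked 72nd and Nr1d1 150th from the lowest. Nr1d1 was the 60th gene from the top in its r with Dbp (0.94), while 153 genes (1.25%) reached 0.9. Clock, the partner of Arntl, had r = 0.76 with Arntl and ranked 957th from the top. Cry2 (-0.43), Cry1 (-0.31), Per1 and Nr1d2 had weak relations to Arntl. The 5 genes most like Arntl were Tmed3 (r = 0.997), Tcf4 (0.992), Gm16062 (0.991), Snf8 (0.990) and Cux1 (0.990), and those most like Dbp were Prpsap2 (0.991), Srp54b (0.990), Gm29216 (0.988), Sdhaf1 (0.983) and H1f0 (0.982). None of these 10 is a gene of the clock lists used here.

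The wider clock pathway was followed in 24 further genes, all of which were tested, and 21 of which had a mean of at least 5 CPM. Of these 21, 8 (38.1%) had r of at least 0.7 in size with both Arntl and Dbp, compared with 14.5% of all 12230 genes. They are named here after their values were seen. The count takes either direction, with 4 genes on each side. Whether each gene stood on the side of its usual phase was not assessed, so the count is no measure of agreement with the clock. On the side of Arntl were Rora, which activates Arntl through the RORE (r = 0.95 with Arntl, -0.95 with Dbp), Npas2, the paralog of Clock (0.82 and -0.88), Usp2, a deubiquitinase with clock-driven RNA (0.90 and -0.98), and Btrc, which marks PER proteins for breakdown (0.97 and -0.93). Rora read 294, 201 and 242 CPM in controls and 148, 320 and 194 CPM in mutants. Npas2 read 38.4, 27.3 and 24.7 CPM in controls and 12.9, 29.5 and 19.7 CPM in mutants. On the side of Dbp were Tef (r = -0.78 with Arntl, 0.74 with Dbp) and Hlf (-0.84 and 0.79), the relatives of Dbp that share the D-box, Bhlhe41 (-0.88 and 0.74), a repressor that binds E-boxes, and Wee1 (-0.88 and 0.73), a cell cycle kinase gene under E-box control. Tef read 75.7, 81.0 and 82.2 CPM in controls and 172, 81.9 and 99.2 CPM in mutants, and Bhlhe41 89.3, 93.3 and 82.9 CPM against 224, 63.6 and 95.6 CPM. Ciart, another repressor that is usually strongly rhythmic, had r of only -0.32 with Arntl and 0.15 with Dbp, at 3.33 to 7.97 CPM.

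**Figure D4:**
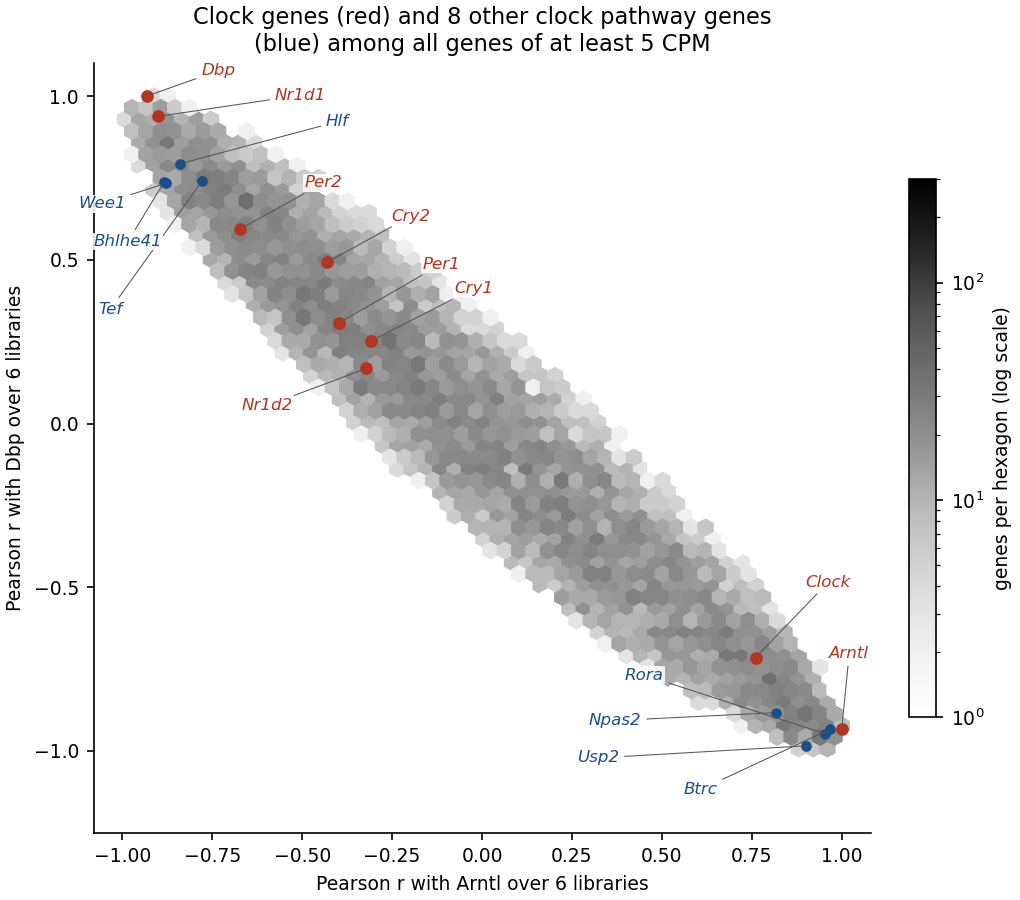
Pearson r over the 6 libraries with Arntl (x axis) and with Dbp (y axis) for all genes with a mean of at least 5 CPM, as grey hexagons shaded by the number of genes on a log scale, with the 9 detected clock genes in red and 8 other clock pathway genes in blue. The band runs along the diagonal because Arntl and Dbp themselves correlate at -0.93, Nr1d1 lies beside Dbp, and Per1, Cry1, Cry2 and Nr1d2 lie near the middle.

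Between genotypes, 1 of the 24 further clock pathway genes was called, and it was higher in mutants, beside 7.21% of all genes called. Bhlhe40, which encodes an E-box repressor related to Bhlhe41 and is also known to respond to hypoxia and growth signals, read 38.3, 30.0 and 25.4 CPM in controls and 93.8, 47.3 and 63.4 CPM in mutants. All 3 mutant libraries lay above all 3 controls, with means of 31.2 ± 6.55 and 68.2 ± 23.6 CPM and a log2 fold change of 1.13 (SE 0.26, edgeR adjusted p = 0.556). It kept an unadjusted p under 0.05 in every alternative fit, with estimates of 0.86 to 1.35 when a library was left out. Adjusted p-values of Bhlhe40 under 0.05 came only from DESeq2 (0.0128) and from edgeR with no filter (0.000967). Bhlhe40 had weak relations to Arntl (r = -0.39) and to Dbp (0.38). Of the 24 genes 14 had estimates above 0 and 10 below, with a median of 0.20, and 4 had libraries that did not overlap (Arntl2, Bhlhe40, Csnk1e and Fbxw11, all higher in mutants), beside 11.4% of all genes. Csnk1d, a kinase that primes PER proteins for breakdown and one of the most abundant of the list, read 103, 95.9 and 68.8 CPM in controls and 114, 91.6 and 109 CPM in mutants.

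Per1 was set beside gene lists that share its quick response to stimuli. Of 14 immediate early genes, which rise within minutes of many stimuli, 9 were called higher and 0 lower in mutants by edgeR at an unadjusted p under 0.05, beside 2.89% of all genes called higher and 4.32% lower, with a median log2 fold change of 0.86. Their summed level was 420, 303 and 308 CPM in controls and 1325, 488 and 569 CPM in mutants, and mutant replicate 1 was the highest library for both that sum and Per1. Among them Jun read 120, 80.2 and 71.0 CPM in controls and 278, 120 and 220 CPM in mutants (log2 fold change 1.19, SE 0.31, edgeR adjusted p = 0.627), with mutant replicates 1 and 3 highest, as for Per1. Fos read 48.1, 14.8 and 28.5 CPM in controls and 236, 69.0 and 47.8 CPM in mutants (log2 fold change 1.95, SE 0.58, edgeR adjusted p = 0.676). Egr1 read 45.1, 13.1 and 18.8 CPM in controls and 201, 43.8 and 51.1 CPM in mutants (log2 fold change 1.94, SE 0.60). Junb read 34.5, 35.2 and 38.2 CPM in controls and 179, 37.1 and 44.2 CPM in mutants (log2 fold change 1.27, SE 0.50). Both were called, and neither had genotypes that stood apart. For both, mutant replicate 1 lay far above every other library. Of 10 glucocorticoid response genes, a list that holds Per1 itself, 4 were called higher and 0 lower, beside the same 2.89% and 4.32% of all genes, with a median of 0.50. Besides Per1 these were Dusp1 (log2 fold change 0.54, SE 0.20), Sgk1 (0.49, SE 0.18) and Errfi1 (0.71, SE 0.20), and these 3 of the 10 listed genes were the ones whose libraries did not overlap between genotypes, beside 11.4% of all genes. Fkbp5 (0.36, SE 0.37), Tsc22d3 (0.51, SE 0.27), Mt2 (0.61, SE 0.32) and Zbtb16 (0.30, SE 0.22) were not called. Nor were Klf9 (0.32, SE 0.23) and Pdk4 (-0.49, SE 0.48). The glucocorticoid list summed to 629, 445 and 490 CPM in controls and 903, 675 and 732 CPM in mutants. With the filter on low counts, neither list had a gene that passed in edgeR after adjustment over all genes. Markers of cell types also moved at this unadjusted threshold, beside the same shares of all genes. Called higher were 3 of 6 annulus and tendon, 2 of 6 osteoblast and 2 of 6 neutrophil markers. So were 1 of 5 red blood cell precursor and 1 of 5 macrophage markers. All 6 skeletal muscle markers were called lower, though for 0 of them did the genotypes stand apart. Their sum was 2801, 96.7 and 63.6 CPM in controls and 151, 133 and 130 CPM in mutants. These calls thus followed control replicate 1, and in this sum the other controls lay below the mutants. Of 6 neuron and glia markers 1 was higher (Gfap) and 1 lower (Rbfox3), and 0 of cartilage, nucleus pulposus or endothelium were called. The part of the gene lists and of these markers in the value of Per1 was not tested.

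**Figure D5:**
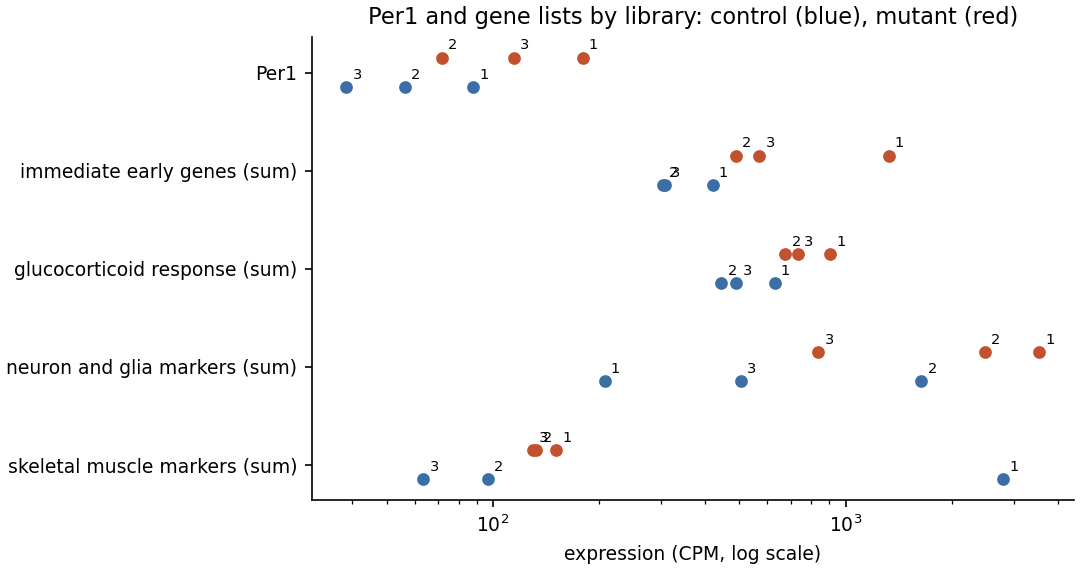
Expression in CPM on a log axis of Per1 and of 4 gene lists, each summed within a library, with controls in blue, mutants in red and the replicate number beside each point. Mutant replicate 1 is highest for Per1 (180 CPM), the immediate early genes (1325 CPM) and the neuron and glia markers (3538 CPM, mostly Mbp). Control replicate 1 is highest for the skeletal muscle markers (2801 CPM).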

How the data were processed

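The authors deposited 1 file of raw counts per gene symbol for each library, without normalization. Poly(A) RNA was made into libraries with the NEBNext Ultra kit. The methods of the study name Cutadapt, HISAT2 and GRCm38.88, whereas the submitters' processing notes name STAR 2.5.3a, HTSeq, DESeq2, mm10 and GRCm38, so the aligner behind the counts is uncertain. The strand setting of the counting is not given in the sources used here. Lines that name no gene (55.8% to 59.6% of reads) stayed out of library sizes. A table of the authors' own comparison holds fold changes and p-values and was not used.

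In R 4.3.3, counts were scaled by TMM, filtered by filterByExpr (count minimum 10) and tested in edgeR 4.0.16 with the quasi-likelihood test on all 6 libraries, with genotype as the only term. The 16152 tested genes were adjusted together by Benjamini-Hochberg, at a threshold of 0.05. SEs were derived from the estimate and its F statistic. CPM uses TMM-scaled totals, and log2 CPM for correlations has a prior count of 2. The study's methods describe a test on FPKM, which these counts cannot feed. Per3, at 0, left 5 correlations and 4 genes set against Arntl. Alternatives were RLE size factors, no filter, DESeq2 1.42.0, limma-voom (limma 3.58.1) with sample quality weights, the replicate number as a block, other make-ups of the score, and each library left out in turn. The correlations of Arntl with Dbp and Nr1d1 without each library were added after seeing the data.

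No libraries of a genotype were alike within sampling noise. Intervals are exact Poisson at 95% and, as reads carry no molecular identifiers, cover counting error only. The clock genes and the lists were chosen with earlier results of these data known. Named are all 10 clock genes, genes of the other lists with an unadjusted p under 0.05 or among the 4 highest levels as far as they bear on the clock genes, the 5 genes most like Arntl and the 5 most like Dbp, and genes that overlap a clock gene. Named after their values were seen are other clock pathway genes with a high r or with libraries that did not overlap, and Ciart. Marker lists are given as sums and as counts of called genes, and for macrophages the measured markers are also named.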

Additional observations from a re-analysis of the deposited data

How the results depend on the processing

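The count of clock genes with an unadjusted p under 0.05 was 1 (Per1) and stayed so with RLE size factors, limma-voom and the replicate block. It was 3 with no filter on low counts (Cry2, Per1 and Per2), where 2276 of 26418 genes were called, and 2 with DESeq2 (Cry2 and Per1), where 1601 of 26372 were. It ran from 0 (without control replicate 3, with 618 of 16388 genes called, or mutant replicate 1, with 817 of 17179) to 3 (without mutant replicate 2, with 1669 of 17095). The count after adjustment was 0, but 1 with no filter (245 of 26418 genes), and 0 with any library left out. For the 24 further clock pathway genes the count of 1 became 5 with no filter and 2 with DESeq2, and ran from 1 to 5 (without mutant replicate 2) with a library left out, beside the same counts over all genes. Same-numbered control and mutant libraries deviated together with r of 0.16, -0.13 and 0.10, and the main fit did not treat them as pairs. With 3 pools a genotype, these r cannot tell whether pools shared a litter or a day. With the replicate block 1002 genes in place of 1164 passed the unadjusted threshold, and neither count of clock genes changed. Estimates that changed sign were those of Arntl (-0.012 with limma-voom, -0.050 with the replicate block, -0.43 to 0.41 with a library left out), Clock (-0.23 to 0.080), Cry1 (-0.26 to 0.066), Nr1d2 (-0.075 to 0.30) and Dbp (-0.081 to 0.76), the last 4 with a library left out. Without the 2 libraries farthest from the median of Arntl, its r turned to 0.40 with Nr1d2, 0.46 with Per1 and 0.11 with Per2. The cause of these shifts was not tested. Depth limits mainly Per2 and Cry1, with as few as 58 and 44 counts in a library.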

Other observations

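Genes that respond to temperature were looked at because body temperature follows the clock. Cirbp, a cold-inducible RNA-binding protein that is rhythmic in many tissues, read 71.3, 72.4 and 81.8 CPM in controls and 58.0, 55.2 and 53.9 CPM in mutants, so that all mutant libraries lay below all controls. Its log2 fold change was -0.43 (SE 0.15, edgeR adjusted p = 0.676), past the unadjusted threshold of 0.05. Hspa1a and Hspa1b, the inducible HSP70 genes, had log2 fold changes of 0.97 (SE 0.36) and 1.30 (SE 0.50), both past the same threshold, and are near-identical copies whose reads the counting may have split. Hspa1b read 20.0, 3.66 and 5.78 CPM in controls and 21.96, 23.3 and 26.9 CPM in mutants, with control replicate 1, the library high in muscle markers, close to the mutants. The other cold-inducible gene, Rbm3, read 81.7, 84.3 and 74.7 CPM in controls and 104, 93.8 and 79.8 CPM in mutants (log2 fold change 0.21, SE 0.17, edgeR adjusted p = 0.807). Of the 8 genes of this list 2 were called higher and 1 lower at an unadjusted p under 0.05, beside 2.89% and 4.32% of all genes, with a median of 0.35, and 0 after adjustment over all genes in the same edgeR fit.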
